A study of Mus musculus with 12 samples.

Results

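The subunit genes of oxidative phosphorylation in the nuclear and mitochondrial genomes were followed in mouse liver. The members were the protein-coding genes of the count table whose mouse symbol began with mt-, with Nduf followed by a, b, c, s or v and a digit, with Uqcr, with Cox4 to Cox8 followed by a, b, c or i, or with Atp5, and the subunit genes Sdha, Sdhb, Sdhc and Sdhd. They were 98 of 55471 gene IDs, 85 in the nucleus and 13 in the mitochondrial genome. A filter on low counts kept 92 of them, 79 nuclear and all 13 mitochondrial. By function the tested nuclear members fell into 35 of complex I, 4 of complex II, 8 of complex III, 15 of complex IV and 17 of complex V, with Ndufa4 and its relative Ndufa4l2 counted with complex IV. The symbols leave out Cyc1 of complex III and Ndufab1 of complex I, and they take in Atp5s, which is not a subunit of the synthase.

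Oxidative phosphorylation is the last stage of respiration in mitochondria, and its subunits are encoded by both the nucleus and the mitochondrial DNA. Complexes I and II take electrons from NADH and succinate, complex III passes them to cytochrome c, and complex IV hands them to oxygen. Complexes I, III and IV pump protons across the inner membrane, and complex V, the ATP synthase, uses their return to make ATP. Complex II is encoded in the nucleus alone, and the other complexes mix subunits from both genomes. In the liver this machinery burns the electrons released by fatty acid oxidation.

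Livers of C57BL/6 mice were compared in 4 groups of 3 libraries. The first group had a standard diet and the second a diet named for metabolic dysfunction-associated steatotic liver disease (MASLD). The other 2 groups had the MASLD diet with Aza-TdC, 1 group at 0.1x and 1 at 1x, as the labels name the doses. Aza-TdC resembles a building block of DNA, and it lowers DNMT1, the enzyme that copies DNA methylation. The absolute doses, the diet's composition and the animals' ages are not given in the labels, and they do not say whether the libraries of a group came from separate animals. The p-values therefore measure the spread between these libraries, which may be partly technical.

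Totals ran from 30213048 to 41852606 counts per library. All 8 hepatocyte markers examined were counted in every group, and their summed level ran from 162790 to 177830 CPM on the standard diet and from 85353 to 137020 CPM in the 9 libraries on the MASLD diet. CPM is the usual depth-scaled count of edgeR, here also scaled for library composition. The libraries also differed in how counts followed the length and GC content of transcripts. That trend accounted for 23.8% of the variance in log2 CPM around the 12-library mean in 0.1x library 3, 18.4% in 1x library 2, 12.8% in MASLD library 5 and 0.367 to 9.16% in the other 9. It bears on these members because they are short. Their median transcript length was 742 bases in the nucleus and 784 bases in the mitochondrial genome, against 2651 bases for the 13763 other tested genes with a length. Every comparison is therefore given from the counts as deposited and again after that trend was removed from each library.

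Before any comparison the members were far from equal in level. Per length, in standard-diet livers, mt-Co1 stood at 8528 ± 2013 CPM per kb and mt-Cytb at 8075 ± 1519.5 (mean ± SD, n = 3). mt-Co1 is the catalytic subunit of complex IV, and mt-Cytb is the cytochrome b of complex III. Among nuclear subunits Uqcrq of complex III stood at 1080.1 ± 198 CPM per kb, Ndufa4 at 894 ± 153, Cox4i1 of complex IV at 827 ± 139 and Atp5b, the catalytic beta subunit of the ATP synthase, at 739 ± 50.3. The spreads of neighbours in this order overlapped. Sdhb, the iron-sulfur subunit of complex II, stood at 262 ± 9.702 CPM per kb, Uqcrc1 of complex III at 201 ± 5.08, and Ndufs1, the largest subunit of complex I, at 42.2 ± 1.69. The 13 mitochondrial genes took 2.99 ± 0.636% of all counts on the standard diet, 2.77 ± 0.338% on the MASLD diet, 2.92 ± 0.580% at 0.1x and 2.60 ± 0.636% at 1x (mean ± SD, n = 3). The 4 ranges overlapped. The nuclear members took 1.41 to 1.61% of counts on the standard diet, 1.485 to 1.54% on the MASLD diet, 1.52 to 2.03% at 0.1x and 1.32 to 1.56% at 1x.

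Within most libraries the nuclear complexes deviated in the same direction. The mean deviation of the tested nuclear members from their average log2 CPM over the 12 libraries was 0.14, 0.12 and 0.32 in standard-diet libraries 3, 4 and 5. It was −0.12, −0.28 and −0.20 in MASLD libraries 3, 4 and 5. It was 0.09, 0.39 and 0.22 in 0.1x libraries 1, 3 and 4, and −0.48, 0.02 and −0.20 in 1x libraries 2, 4 and 5. The standard-diet and 0.1x libraries were all above 0, the untreated MASLD libraries were all below it, and the 1x libraries spanned both. Complex II was the lowest complex in each 0.1x library in these values, from which the length and GC trend was not removed. It lay at 0.12 in 0.1x library 3, where complexes I, III, IV and V lay between 0.36 and 0.44, and at −0.10 in 0.1x library 1, where complex III lay at 0.015 and complexes I, IV and V between 0.10 and 0.12. The mitochondrial genome did not follow the nuclear complexes in every library. It lay at 0.71 in standard-diet library 3 and 0.55 in 0.1x library 1, the highest values of any class, and at −0.19 in 0.1x library 3, where the nuclear members were highest.

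**Figure D1:**
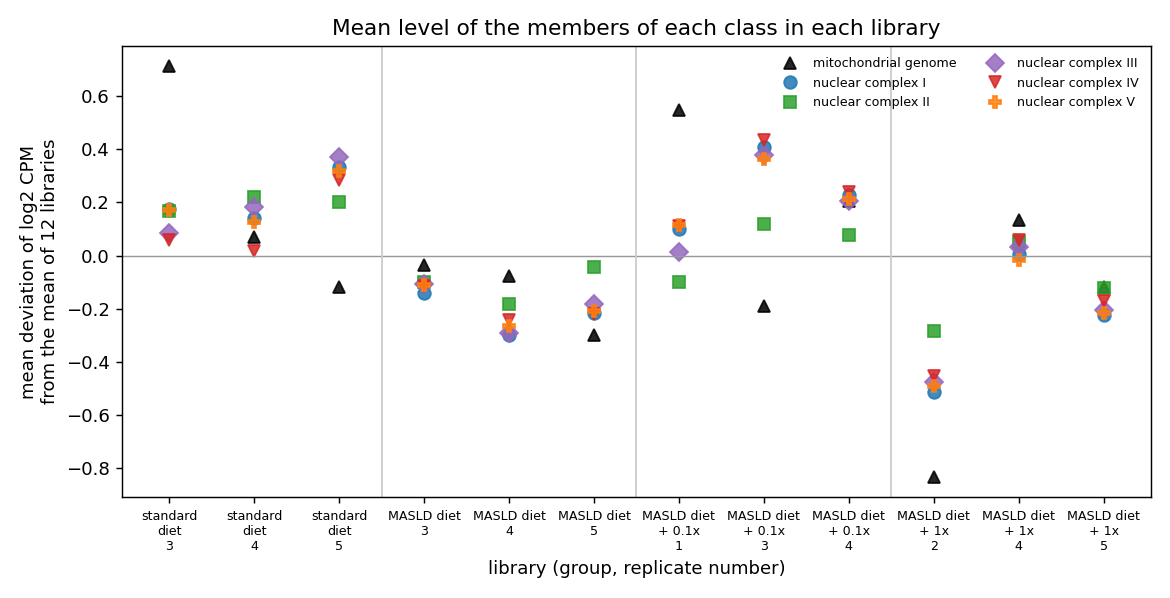
Each symbol is the mean deviation of log2 CPM of one class of members from its average over the 12 libraries, with libraries on the x axis by group and replicate number and the deviation in log2 units on the y axis. The 5 nuclear complexes sit close together in most libraries, while the mitochondrial genome (black triangles) reaches 0.71 in standard-diet library 3 and −0.83 in 1x library 2.

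On the MASLD diet many nuclear subunits of oxidative phosphorylation were lower after scaling for library composition. Of 79 tested nuclear members 41 fell and 0 rose against the standard diet, with a median log2 fold change of −0.41. Over all genes tested 13.9% fell and 15.6% rose, with a median of 0.03. The falls took in every complex, with 20 of 35 in complex I, 2 of 4 in complex II, 3 of 8 in complex III, 7 of 15 in complex IV and 9 of 17 in complex V. These calls, like all that follow, are from edgeR's quasi-likelihood test, with p adjusted by Benjamini and Hochberg's method over 13866 genes and called under 0.05. Errors of log2 fold changes are standard errors. In 64 of the 79 the 3 libraries of one diet did not overlap those of the other, beside 47.9% of all genes. All 8 hepatocyte markers fell beside them (median −0.78), all 6 markers of lipid-associated macrophages rose (median 2.79) and 6 of 7 stellate cell markers rose (median 0.88). With the trend removed 6 hepatocyte markers fell, and 6 and 6 of the other 2 lists rose. From the deposited counts 4 of 6 Kupffer cell, 3 of 6 sinusoidal endothelial and 3 of 5 cholangiocyte markers also rose and 0 fell. Of 5 T and NK cell markers 1 fell and 0 rose, and of 5 erythroid ones 1 rose and 1 fell. Their part in the result was not tested. As a share of unscaled counts the nuclear members did not differ between the diets beyond their spread, as given above, and the composition factors were 0.852 to 0.866 on the standard diet and 1.075 to 1.15 on the MASLD diet. The falls are thus relative to a typical gene, and the count was 51 with DESeq2's own factors. In whole liver, fewer cells of a type and less RNA per cell cannot be told apart.

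The smallest adjusted p among the nuclear members was that of Sdhb (ENSMUSG00000009863, chromosome 4, 140961203 to 140979193, build GRCm38), which passes electrons within complex II. Sdhb stood at 298, 289 and 311 CPM in the standard-diet libraries and 181, 160.4 and 193 CPM in the MASLD libraries. The groups did not overlap (log2 fold change −0.75 ± 0.12, adjusted p = 0.000513). Sdhc, a membrane anchor of complex II, went from 244, 231 and 229.8 CPM to 191, 183 and 184 CPM, again without overlap (log2 fold change −0.34 ± 0.10, adjusted p = 0.0248). Sdha, the flavoprotein of the same complex, did not pass at 0.08 ± 0.13, adjusted p = 0.695, and its groups overlapped, with 542, 561 and 472 CPM against 538, 502 and 620.4 CPM.

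In complex I, Ndufb10, an accessory subunit of the membrane arm, stood at 175, 171 and 193 CPM on the standard diet and 112, 104 and 106 CPM on the disease diet (log2 fold change −0.74 ± 0.14, adjusted p = 0.000929). Ndufv3, an accessory subunit of the NADH-binding module, stood at 139, 113 and 134 CPM and 84.8, 76.4 and 78.5 CPM (log2 fold change −0.69 ± 0.13, adjusted p = 0.00115). Both genes were lower in every MASLD library than in any standard-diet library. Ndufs1 differed from the others, with 112, 112 and 104 CPM against 124, 109.8 and 133 CPM and no call (0.16 ± 0.11, adjusted p = 0.28). Of the 7 tested nuclear core subunits of complex I, which carry its redox centres, 4 fell, and of the 28 others 16 fell.

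In complex III the falls with the smallest adjusted p were Uqcrb, the ubiquinone-binding subunit, from 190.4, 173 and 208 to 128, 123 and 131 CPM (log2 fold change −0.58 ± 0.13, adjusted p = 0.00399), and Uqcrq (−0.63 ± 0.17, adjusted p = 0.0115). Uqcrc1 had a value of −0.31 ± 0.12, adjusted p = 0.0711. In complex IV they were Cox5b (−0.54 ± 0.13, adjusted p = 0.00585) and Cox6b1 (−0.45 ± 0.14, adjusted p = 0.024), both structural subunits around the catalytic core. Cox6a1 and Cox8a also passed, at −0.36 ± 0.13, adjusted p = 0.0463 and −0.36 ± 0.13, adjusted p = 0.0422, and Cox4i1, Cox7a2 and Ndufa4 did not, at −0.37 ± 0.16, adjusted p = 0.0979, −0.40 ± 0.18, adjusted p = 0.103 and −0.45 ± 0.17, adjusted p = 0.0517. In complex V, Atp5g1, 1 of the genes for the proton-carrying c ring, went from 250.3, 244 and 265 to 166, 151 and 172 CPM (log2 fold change −0.64 ± 0.13, adjusted p = 0.00269). Atp5h, a stalk subunit, had a value of −0.66 ± 0.15, adjusted p = 0.00392. Atp5b stayed within its spread, with 1322, 1515 and 1413 CPM on the standard diet and 1388, 1254 and 1412 CPM on the disease diet (−0.07 ± 0.12, adjusted p = 0.7). Close relatives of Atp5g1 and Atp5h elsewhere in the genome share 48.1% and 32.7% of their 100-base windows, and the share was 15.8% for Uqcrb and 8.09% for Cox5b. Those counts are uncertain for that reason, but a share of windows is not a share of counts in doubt. Of 51 tested nuclear members that shared no window 23 fell.

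In the second fit, without the GC and length trend, 18 of 79 nuclear members fell and 1 rose on the diet, with a median of −0.15. Over all genes 14.2% fell and 14.9% rose in that fit. All 18 were among the 41, with 12 in complex I, 2 in complex II, 0 in complex III, 0 in complex IV and 4 in complex V. Sdhb (−0.53, adjusted p = 0.00122), Ndufv3 (−0.55, adjusted p = 0.0016), Ndufb10 (−0.45, adjusted p = 0.00202), Sdhc (−0.44, adjusted p = 0.00498), Atp5h (−0.34, adjusted p = 0.0116) and Atp5g1 (−0.33, adjusted p = 0.0323) were called in both fits. Uqcrb, Cox5b, Cox6b1, Cox6a1 and Cox8a were not, at −0.23, adjusted p = 0.14 for Uqcrb and −0.02, adjusted p = 0.921 for Cox8a. Both counts moved with single libraries. Without standard-diet library 5, MASLD library 4 or MASLD library 5 the deposited counts gave 19, 20 and 23 calls, and with the trend removed, where all libraries gave 19 including the rise, the count was 11 and 8 without standard-diet library 4 or 5 and 9, 7 and 12 without MASLD library 3, 4 or 5.

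The promoters of 4 members show what the table of gene starts holds for subunits that fell in both fits (Sdhb and Ndufa6), for a subunit of the same complex as Sdhb that was not called (Sdha) and for the only nuclear member that rose on the diet with the trend removed (Cox7a1). The 250 bases before RefSeq's annotated start are given on build GRCm38.p6, 5′ to 3′ on the gene's strand. GENCODE places the start of all 4 genes farther upstream, inside these windows, so the last bases of each window, GCATGCGC of Sdhb among them, lie within the gene in that annotation. Capitals mark GGGCGG, the core of SP1 sites, or GCATGCGC, a stretch of NRF1 sites, on either strand. NRF1 is a factor that binds many genes of respiration.
Sdhb, chr4:140961021-140961270, plus strand: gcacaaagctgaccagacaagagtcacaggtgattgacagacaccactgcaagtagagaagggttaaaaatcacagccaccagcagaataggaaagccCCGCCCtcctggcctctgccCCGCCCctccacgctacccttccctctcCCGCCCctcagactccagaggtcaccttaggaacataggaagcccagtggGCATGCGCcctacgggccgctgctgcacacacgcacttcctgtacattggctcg
Ndufa6, chr15:82354292-82354541, minus strand: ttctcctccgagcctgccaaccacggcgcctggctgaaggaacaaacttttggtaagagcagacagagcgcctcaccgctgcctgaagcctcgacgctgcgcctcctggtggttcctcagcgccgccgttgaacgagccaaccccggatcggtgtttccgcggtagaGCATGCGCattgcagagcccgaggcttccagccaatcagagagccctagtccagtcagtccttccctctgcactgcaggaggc
Sdha, chr13:74350241-74350490, minus strand: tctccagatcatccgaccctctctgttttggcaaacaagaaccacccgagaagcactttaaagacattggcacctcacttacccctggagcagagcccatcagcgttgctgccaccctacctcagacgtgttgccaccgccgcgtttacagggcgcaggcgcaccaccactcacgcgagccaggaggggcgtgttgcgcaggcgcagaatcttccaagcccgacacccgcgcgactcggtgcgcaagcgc
Cox7a1, chr7:30183921-30184170, plus strand: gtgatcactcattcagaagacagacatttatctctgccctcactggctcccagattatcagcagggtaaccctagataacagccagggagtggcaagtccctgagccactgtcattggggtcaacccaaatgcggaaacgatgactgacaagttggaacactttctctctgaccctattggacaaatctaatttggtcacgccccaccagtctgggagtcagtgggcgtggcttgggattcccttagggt
Sdhb held GGGCGG 3 times and GCATGCGC 1 time, Ndufa6 held GCATGCGC 1 time, and the windows of Sdha and Cox7a1 held neither. Of the 64 tested nuclear members with a window, 12.5% held GCATGCGC on either strand, against 2.56% of 27025 genes. The share for the longer NRF1 motif, in which GC precedes those letters, was 6.25% against 0.877%. The shares for GGGCGG were 34.4% and 35.4%, for CCGGAAGT of GABPA sites 4.69% and 3.23%, for AAGATGGC of YY1 sites 1.56% and 1.83%, and for TCAAGGTCA of ESRRA sites 1.56% and 0.422%. GCATGCGC was in 3 of 17 members that fell in both fits, 3 of 18 that fell only before the trend was removed and 2 of 29 with no fall called. GCATGCGC was added after these windows were read.

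From the deposited counts the nuclear members' median fall on the diet was smaller in longer transcripts. The share called was lower only at 1500 bases or more. Under 1000 bases 31 of 53 tested nuclear members fell on the diet (median −0.47), beside 24.9% of 1551 other genes of that length (median −0.36). From 1000 to under 1500 bases 7 of 12 fell (median −0.39), beside 25.2% of 1501 other genes (median −0.20). At 1500 bases or more 3 of 14 fell (median −0.17), beside 10.4% of 10711 other genes (median 0.10). The 3 were called with the trend removed as well. In the shortest class the trend-removed fit called 11 of 53 falls, beside 11.5% of the other genes. Spearman's rho between log2 fold change and length was 0.25 across the 79 nuclear members and 0.30 across the 13763 other genes, which share the same libraries. After the trend was removed it was −0.21 and 0.02.

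**Figure D2:**
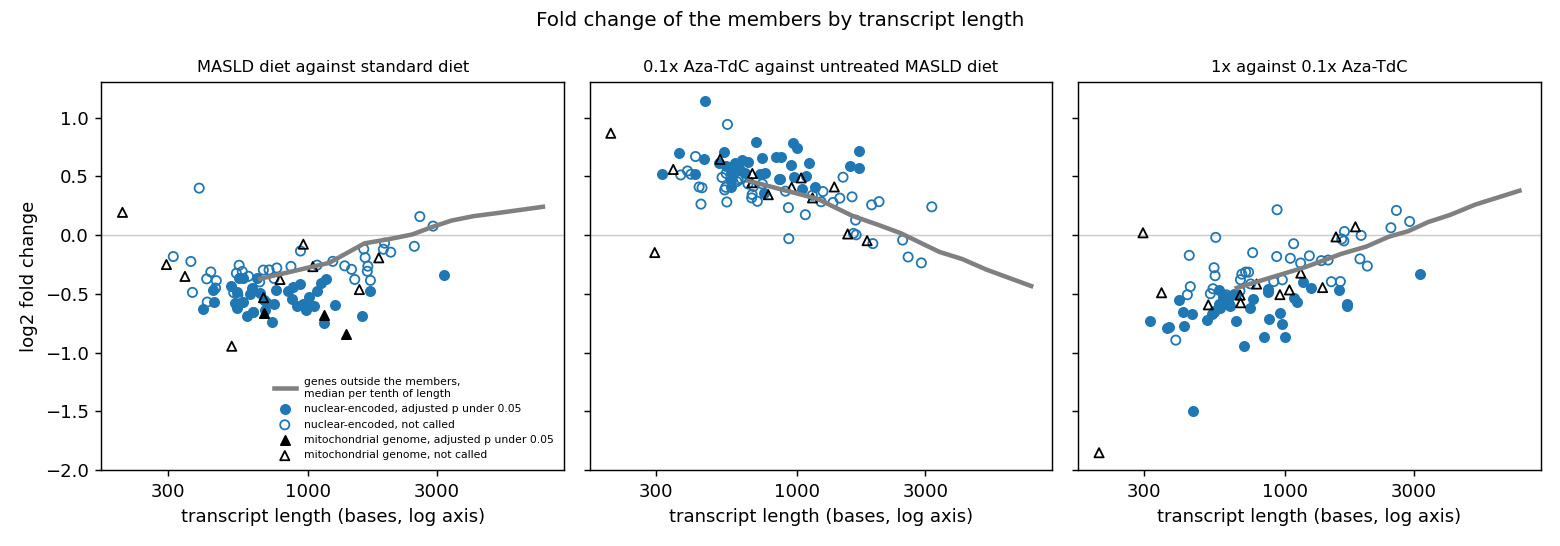
Log2 fold change of each tested member (y axis) against transcript length in bases (x axis, log scale) in 3 comparisons, with filled symbols for adjusted p under 0.05. The grey line is the median of the other genes in 10 bins of length, and most members lie near the part of that line for short genes, which stands at −0.37, 0.46 and −0.45 in its first bin.

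At 0.1x Aza-TdC many nuclear subunits were higher than in untreated MASLD livers. Of 79 tested nuclear members 36 rose and 0 fell (median 0.48), where 6.08% of all genes rose and 7.09% fell. The rises were 21 of 35 in complex I, 0 of 4 in complex II, 1 of 8 in complex III, 7 of 15 in complex IV and 7 of 17 in complex V. Of 8 hepatocyte markers 1 rose and 0 fell (median 0.34), and of 6 markers of lipid-associated macrophages 1 fell (median −1.12). Their part was not tested. Because this comparison and that of the diets share the 3 untreated MASLD libraries, a low value there makes both larger, and the 2 sets of calls are not independent of each other.

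Uqcrb stood at 216, 215 and 191 CPM in the 0.1x libraries and 128, 123 and 131 CPM in the untreated ones (log2 fold change 0.70 ± 0.13, adjusted p = 0.00939). Ndufa12, an accessory subunit of complex I, stood at 68.6, 67.4 and 68.01 CPM and 45.7, 41.6 and 45.8 CPM (log2 fold change 0.62 ± 0.12, adjusted p = 0.0101). Ndufv2, a core subunit with an iron-sulfur centre, stood at 135, 163 and 131 CPM and 93.5, 82.5 and 86.3 CPM (log2 fold change 0.71 ± 0.14, adjusted p = 0.0109). The 3 treated libraries lay above all untreated ones for each of these genes. Among the others with the smallest adjusted p were Cox5a (0.53 ± 0.12, adjusted p = 0.0145) and Cox6b1 (0.56 ± 0.14, adjusted p = 0.0204) of complex IV and Atp5mpl (0.70 ± 0.15, adjusted p = 0.0136) and Atp5j (0.66 ± 0.15, adjusted p = 0.0142) of complex V. Ndufa4 and Cox7a2 also rose (0.65 ± 0.17, adjusted p = 0.0223 and 0.62 ± 0.18, adjusted p = 0.0349), as did Cox6a1 (0.41 ± 0.13, adjusted p = 0.0485). Sdhb (0.34 ± 0.12, adjusted p = 0.0832), Uqcrc1 (0.13 ± 0.12, adjusted p = 0.506), Cox4i1 (0.44 ± 0.16, adjusted p = 0.0832), Cox8a (0.28 ± 0.13, adjusted p = 0.144), Ndufs1 (−0.19 ± 0.11, adjusted p = 0.247) and Atp5b (−0.07 ± 0.12, adjusted p = 0.721) did not pass.

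Without the trend 2 of these 36 calls held, Ndufv2 (0.44, adjusted p = 0.0439) and Ndufv3 (0.45, adjusted p = 0.0417), where 1.11% of all genes rose and 2.57% were called in either direction. The median of the nuclear members was then 0.05. That of complex II was 0.26 from the deposited counts, where the other nuclear complexes had 0.41 to 0.49. With the trend removed it was 0.04, within the 0.01 to 0.09 of the others. Ndufa12 had a value of 0.33, adjusted p = 0.0738, Uqcrb of 0.09, adjusted p = 0.7 and Atp5mpl of −0.004, adjusted p = 0.986, so that Atp5mpl changed sign, as did Cox6a1 (−0.015, adjusted p = 0.951). Ndufa12 shares 17.7% of its windows with other genes, and Cox5a 13.6%. Genes outside the members under 1000 bases rose in 22.3% of 1551 cases (median 0.45), and members of that length in 28 of 53 (median 0.52). The count from the deposited counts was 11, 3 and 5 without MASLD library 3, 4 or 5 and 14 without 0.1x library 3. In the second fit it was 0 without MASLD library 3, 4 or 5 or 0.1x library 1 or 4, and 2 without 0.1x library 3.

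**Figure D3:**
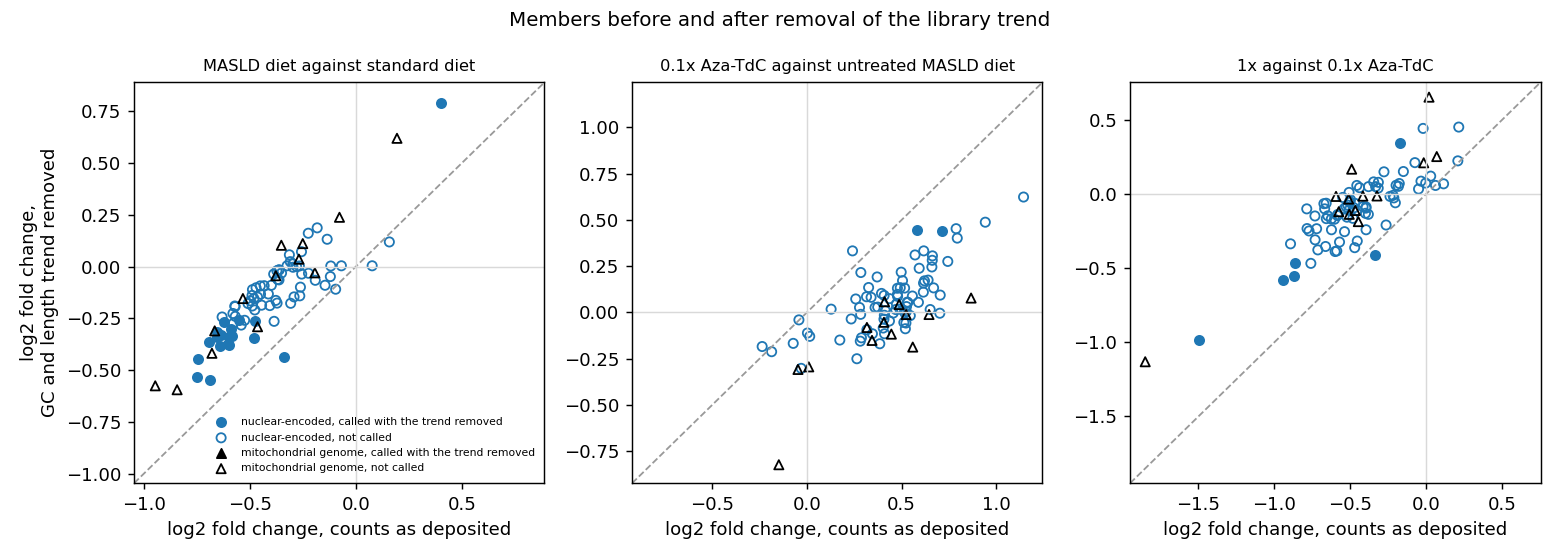
Log2 fold change of each tested member from the deposited counts (x axis) against its value with the GC and length trend removed from each library (y axis), with filled symbols for members called in the second fit and a dashed line of equal values. On the diet a spread of nuclear members stays below 0, with 18 falls called, and at 0.1x the members centre near 0, with 2 rises called.

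At 1x Aza-TdC no nuclear member passed against untreated MASLD livers. edgeR's test called 0 of 79 (median −0.02), 0 passed an unadjusted p under 0.05, and DESeq2 called 0, where 3.11% of all genes were called, 1.49% as higher and 1.62% as lower. After removal of the trend the count was again 0 (median −0.05), 1 passed an unadjusted p under 0.05, and 4.36% of all genes were called, 2.15% as higher and 2.21% as lower. The 1x libraries differed among themselves. Uqcrb stood at 104, 149 and 138 CPM, Sdhb at 159.6, 215 and 199.7 CPM and Atp5h at 149.8, 238 and 195 CPM in 1x libraries 2, 4 and 5, with library 2 lowest each time. Sdhb differed from untreated livers by 0.10 ± 0.12, adjusted p = 0.769, Ndufs1 by 0.02 ± 0.11, adjusted p = 0.952, Uqcrc1 by 0.08 ± 0.12, adjusted p = 0.827, Cox4i1 by 0.02 ± 0.16, adjusted p = 0.974 and Atp5b by −0.07 ± 0.12, adjusted p = 0.836. The other fixed members had values of −0.02 (Ndufa4), −0.06 (Cox6a1), −0.35 (Cox7a1), −0.11 (Cox7a2) and −0.06 (Cox8a), with adjusted p from 0.661 to 0.972. Standard errors of 0.11 to 0.16 for the first 5 leave changes of that size undetectable here.

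Many nuclear subunits differed between the doses. At 1x 41 of 79 tested nuclear members were lower than at 0.1x and 0 were higher (median −0.47), where 5.86% of all genes were lower and 7.13% higher. The falls were 21 of 35 in complex I, 1 of 4 in complex II, 3 of 8 in complex III, 7 of 15 in complex IV and 9 of 17 in complex V. Of the cell markers, 4 of 5 erythroid ones (median −0.95) and 3 of 6 of Kupffer cells (median −0.80) were also lower at 1x, and 1 of 8 hepatocyte markers was higher (median 0.04). With the trend removed 0, 2 and 0 of them were called. Their part in the result was not tested. Ndufb2, an accessory subunit of complex I, had the largest change among the named members, with 14.01, 22.2 and 10.1 CPM at 0.1x and 4.14, 7.702 and 4.598 CPM at 1x (log2 fold change −1.495 ± 0.27, adjusted p = 0.00631). Its 3 values at 0.1x were all above those at 1x, and 0.1x library 3 was highest. Others named by adjusted p were Ndufa3 (−0.72 ± 0.14, adjusted p = 0.00849), Sdhc (−0.33 ± 0.10, adjusted p = 0.0474), Uqcrb (−0.67 ± 0.13, adjusted p = 0.00879), Uqcrh (−0.66 ± 0.20, adjusted p = 0.042), Cox7b (−0.86 ± 0.19, adjusted p = 0.0129), Cox5a (−0.50 ± 0.12, adjusted p = 0.0175), Atp5mpl (−0.79 ± 0.15, adjusted p = 0.00879) and Atp5o (−0.87 ± 0.17, adjusted p = 0.00895). Atp5o is the stalk subunit known for oligomycin sensitivity. Ndufa4 (−0.67 ± 0.17, adjusted p = 0.0197), Cox7a2 (−0.73 ± 0.18, adjusted p = 0.0193) and Cox6a1 (−0.47 ± 0.13, adjusted p = 0.0296) were also lower at 1x. Sdhb (−0.24 ± 0.12, adjusted p = 0.215), Ndufs1 (0.21 ± 0.11, adjusted p = 0.197), Uqcrc1 (−0.05 ± 0.12, adjusted p = 0.825), Cox4i1 (−0.41 ± 0.16, adjusted p = 0.0967), Cox8a (−0.34 ± 0.13, adjusted p = 0.0811), Cox7a1 (−0.89 ± 0.32, adjusted p = 0.0722) and Atp5b (−0.002 ± 0.12, adjusted p = 0.994) did not pass.

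After the trend was removed 5 of 79 were lower at 1x and 1 was higher (median −0.09), where 1.93% of all genes were lower and 2.42% higher. The 5 were Ndufb2 (−0.99, adjusted p = 0.031), Ndufb9 (−0.58, adjusted p = 0.0313), Sdhc (−0.41, adjusted p = 0.036), Cox7b (−0.47, adjusted p = 0.0332) and Atp5o (−0.55, adjusted p = 0.0346). The 1 was Atp5g2 (0.35, adjusted p = 0.04), which was not called from the deposited counts (−0.17 ± 0.12, adjusted p = 0.35) and whose windows all recur in a processed copy of the gene, so its counts are uncertain. Shares were 30.3% for Atp5o, 17.0% for Ndufb9 and 12.9% for Ndufb2. The count from the deposited counts was 19 without 0.1x library 3, 6 without 1x library 2 and 13 without 1x library 5. In the second fit it was 1 or 2 without any one 0.1x library, 0 without 1x library 2 or 5, and 10 without 1x library 4.

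The mitochondrial genome is transcribed into long precursors that are processed into single messages. On the MASLD diet 3 of its 13 members fell and 0 rose (median −0.38), beside 13.9% and 15.6% of all genes. They were mt-Nd4 of complex I, mt-Cytb, and mt-Co2 of complex IV. Of their 100-base windows 60.8%, 0% and 99.5% recur in other genes, so the falls of mt-Nd4 and mt-Co2 rest on uncertain counts. mt-Nd4 (mitochondrial genome, 10167 to 11544) stood at 4282, 3306 and 3112 CPM on the standard diet and 2132, 1999 and 1839 CPM on the disease diet (log2 fold change −0.84 ± 0.25, adjusted p = 0.0209). mt-Cytb stood at 11226, 8484 and 8004 CPM and 6042, 5821 and 5463 CPM (log2 fold change −0.68 ± 0.24, adjusted p = 0.0422). mt-Co2 stood at 52.3, 43.2 and 38.99 CPM and 29.2, 29.8 and 25.8 CPM (log2 fold change −0.67 ± 0.22, adjusted p = 0.0326). The groups did not overlap for any of the 3. Without the trend 0 of 13 passed (median −0.04; 0 at an unadjusted p under 0.05), with mt-Nd4 at −0.59, adjusted p = 0.148 and mt-Cytb at −0.42, adjusted p = 0.269. The count was 0 without standard-diet library 3, MASLD library 4 or MASLD library 5, and 1 without standard-diet library 4 or MASLD library 3.

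The other mitochondrial members differed less or spread more. mt-Nd1 of complex I stood at 3846, 2625 and 2625 CPM on the standard diet and 3077, 3177 and 2369 CPM on the disease diet, and the groups overlapped (log2 fold change −0.08 ± 0.24, adjusted p = 0.839). mt-Co1 had a value of −0.46 ± 0.22, adjusted p = 0.133 and mt-Atp6, of the proton channel of complex V, of −0.53 ± 0.22, adjusted p = 0.0856. mt-Nd6, the only protein gene on the other strand, stood at 23.7, 6.33 and 4.91 CPM on the standard diet, where library 3 was apart from the other 2, and at 6.67, 5.98 and 5.43 CPM on the disease diet (log2 fold change −0.94 ± 0.44, adjusted p = 0.12). At 0.1x edgeR called 0 of 13 against untreated livers (median 0.41; 1 at an unadjusted p under 0.05; 0 by DESeq2), with mt-Nd1 at 0.41 ± 0.24, adjusted p = 0.259, mt-Cytb at 0.32 ± 0.23, adjusted p = 0.38, mt-Co1 at 0.01 ± 0.22, adjusted p = 0.982, mt-Nd6 at 0.65 ± 0.44, adjusted p = 0.341 and mt-Atp6 at 0.45 ± 0.22, adjusted p = 0.187. At 1x it called 0 of 13 (median −0.04; 0 at an unadjusted p under 0.05; 0 by DESeq2), with adjusted p of 0.899 for mt-Nd1 and 0.935 for mt-Atp6. Between the doses it called 0 of 13 (median −0.47; 3 at an unadjusted p under 0.05; 1 by DESeq2). After removal of the trend the medians of these 3 comparisons were −0.08, −0.13 and −0.01, again with 0 called and 0 at an unadjusted p under 0.05. Of all genes 6.08% rose and 7.09% fell at 0.1x, 1.49% and 1.62% at 1x, and 7.13% were higher and 5.86% lower at 1x than at 0.1x. With the trend removed 2.57%, 4.36% and 4.36% were called in either direction. The mean deviation of the 13 genes had a standard deviation between libraries of 0.44 on the standard diet, 0.14 on the MASLD diet, 0.37 at 0.1x and 0.50 at 1x, against 0.11, 0.08, 0.15 and 0.25 for the nuclear members.

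Ratios of 2 mitochondrial genes within a library do not depend on library scaling, and some parted the diets. These ratios were chosen after the values were seen, so no test is given. The log2 ratio of mt-Cytb to mt-Nd1 counts was 1.54, 1.69 and 1.61 in the standard-diet libraries, 0.97, 0.87 and 1.21 in the MASLD libraries, 0.94, 0.97 and 0.84 at 0.1x and 0.98, 1.09 and 1.19 at 1x. All 9 libraries on the MASLD diet lay below all 3 on the standard diet, with or without Aza-TdC. Neither gene shared a 100-base window with another annotated gene, while mt-Nd4, used next, shared 60.8% of its windows. The log2 ratio of mt-Nd4 to mt-Nd1 was 0.15, 0.33 and 0.25 on the standard diet, −0.53, −0.67 and −0.37 on the MASLD diet, −0.49, −0.59 and −0.53 at 0.1x and −0.66, −0.48 and −0.33 at 1x, parted in the same way. As shares of the 13 genes' counts, mt-Cytb took 26.6 ± 0.985% on the standard diet and 23.1 ± 1.35% on the MASLD diet, and mt-Nd1 took 8.70 ± 0.509% and 11.4 ± 0.699% (mean ± SD, n = 3).

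The ratio of mt-Co1 to mt-Nd1 was 2.11, 2.24 and 2.004 on the standard diet and at most 1.88 in the other 9 libraries, which parted the diets too, and so did mt-Cytb to mt-Nd2, at 1.35 to 1.46 on the standard diet and 0.94 to 1.03 on the untreated MASLD diet. mt-Co1 shares 30.8% of its windows with other genes and mt-Nd2 3.20%. Of the other pairs computed, mt-Nd2 to mt-Nd1 and mt-Nd5 to mt-Nd1 did not part the diets. The log2 ratio of mt-Nd2 to mt-Nd1 was 0.18, 0.34 and 0.14 on the standard diet and 0.00, −0.07 and 0.17 on the MASLD diet, which overlapped. The ratio of mt-Nd5 to mt-Nd1 parted 0.1x from the rest, at −1.08, −1.10 and −1.01, where the other 9 libraries ran from −0.76 to −0.36. mt-Nd5 is the longest mitochondrial member, at 1824 bases, and mt-Nd1 has 957. mt-Cytb with 1144 bases and mt-Nd4 with 1378 are longer than mt-Nd1 too, and untreated MASLD libraries had relatively more counts in long transcripts (Spearman's rho of deviation with length 0.25 to 0.42), where these ratios were lower. The 0.1x libraries had relatively fewer (rho −0.44 to −0.24), and the ratios of mt-Cytb and mt-Nd4 to mt-Nd1 were low there as well. The part of transcript length in any of these ratios was not tested.

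**Figure D4:**
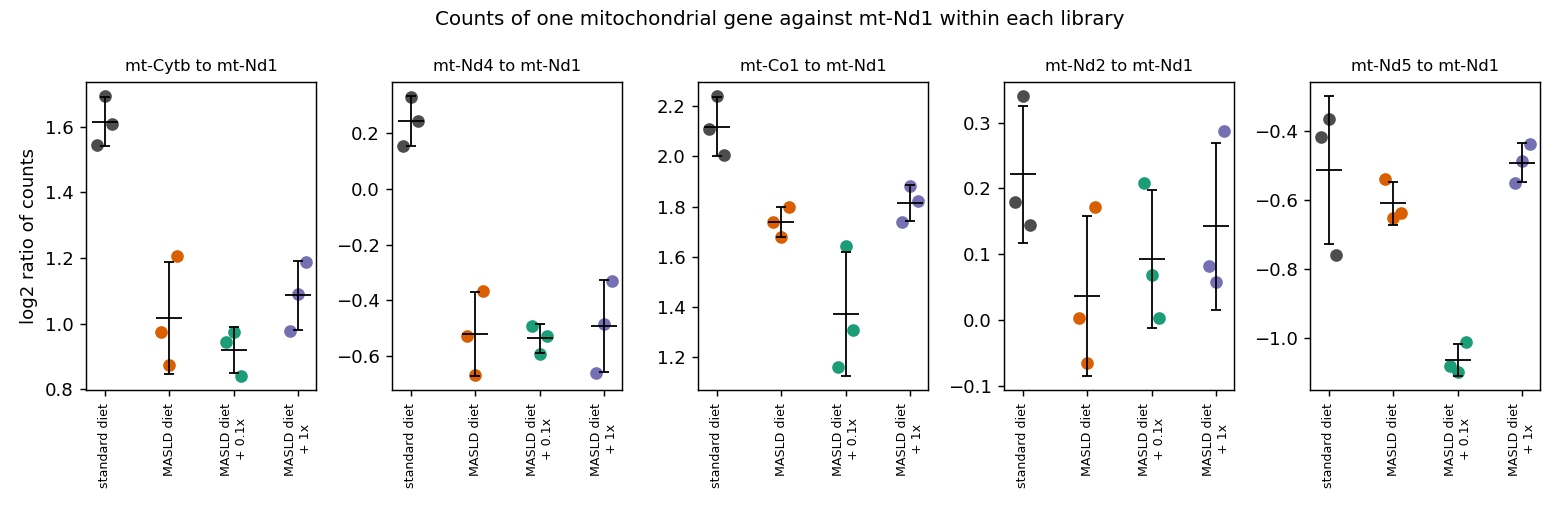
Log2 ratio of counts of a mitochondrial gene to mt-Nd1 within each library (y axis) by group, with points for libraries and bars for the mean ± SD of 3. For mt-Cytb and mt-Nd4 the 3 standard-diet libraries lie above all 9 libraries on the MASLD diet, at 1.54 to 1.69 and 0.15 to 0.33.

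Levels of the mitochondrial genes fell into 2 ranges. mt-Nd1, mt-Nd2, mt-Co1, mt-Nd4, mt-Nd5 and mt-Cytb stood at 1182 to 8528 CPM per kb on the standard diet (group means), and mt-Co2, mt-Atp8, mt-Atp6, mt-Co3, mt-Nd3, mt-Nd4l and mt-Nd6 at 1.66 to 66.3. Of 100-base windows of mt-Co2, mt-Atp6, mt-Co3, mt-Nd3 and mt-Nd4l, 97.6 to 99.9% recur in annotated pseudogenes on chromosome 1, where a stretch of mitochondrial DNA has been copied into the nucleus. The share of windows found in any other gene was 60.8% for mt-Nd4, 30.8% for mt-Co1 and 3.20% for mt-Nd2, whose copy is on chromosome 2. mt-Atp8, mt-Nd1, mt-Nd5, mt-Nd6 and mt-Cytb shared none, so mt-Atp8 and mt-Nd6 were low without an annotated copy. Only annotated transcripts were searched. mt-Atp8 starts between mt-Co2 and mt-Atp6, whose copies neighbour each other at 24614885 to 24615565 and 24613974 to 24614651 of chromosome 1. An unannotated copy of mt-Atp8 may lie there, which was not checked. On the mitochondrial genome mt-Atp8, at 7766 to 7969, also overlaps mt-Atp6, at 7927 to 8607 on the same strand. How reads in that overlap were counted is not stated in the sources, and its part was not tested. The first 80 bases of a message and of its copy show how little there is to tell them apart, with a difference in capitals. They are from the GENCODE transcripts, 5′ to 3′.
mt-Atp6: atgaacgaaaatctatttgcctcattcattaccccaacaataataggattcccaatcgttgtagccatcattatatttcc
Gm10925, its copy on chromosome 1: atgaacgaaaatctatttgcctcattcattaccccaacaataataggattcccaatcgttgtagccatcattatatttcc
mt-Nd3: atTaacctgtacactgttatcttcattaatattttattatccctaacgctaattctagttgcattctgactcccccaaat
Gm28438, its copy on chromosome 1: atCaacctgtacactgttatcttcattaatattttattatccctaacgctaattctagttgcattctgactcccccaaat
Gm10925 matched mt-Atp6 at all 678 aligned bases, and Gm28438 differed from mt-Nd3 at 1 of 345. The treatment of reads that match both places is not stated in the sources. The counts of these 5 members and of mt-Nd4 and mt-Co1 are therefore uncertain, as levels and in their fold changes. Those of mt-Atp8 may be as well. Over all libraries the copy of mt-Co2 had 13544 counts against 14696 for mt-Co2 itself. The copy of mt-Nd4 had 3169 against 1053832.

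**Figure D5:**
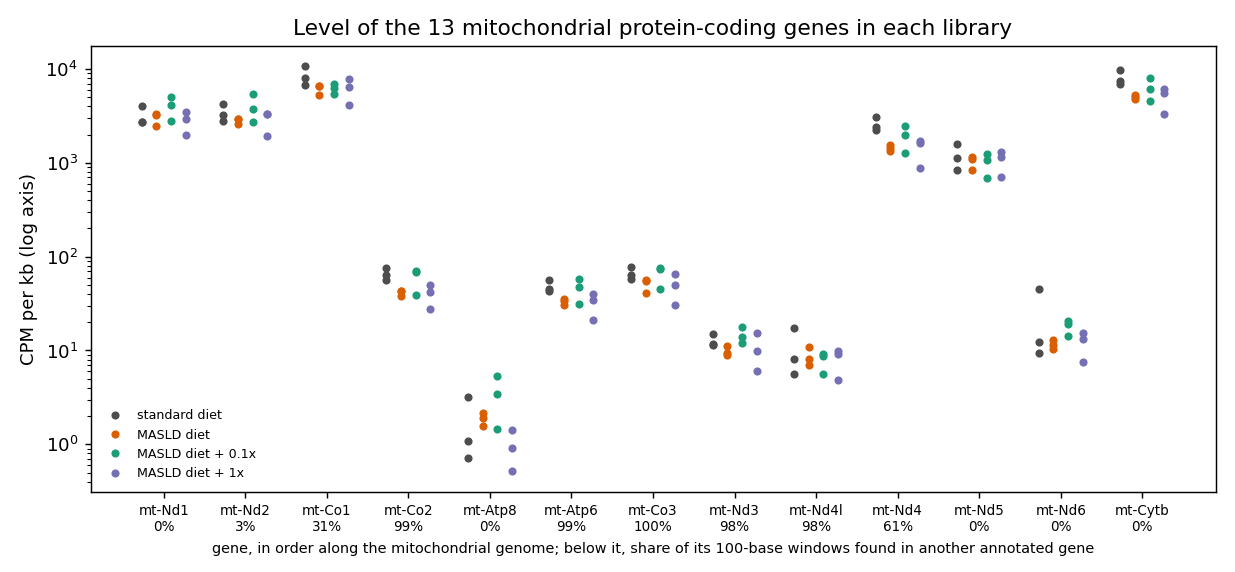
CPM per kb (y axis, log scale) of the 13 mitochondrial protein-coding genes in each of 12 libraries, in their order along the mitochondrial genome, with the share of each gene's 100-base windows found in another annotated gene below its name. The 5 genes with shares of 97.6 to 99.9% stand far below mt-Nd1, mt-Co1 and mt-Cytb in every library, and so do mt-Atp8 and mt-Nd6 with shares of 0%.

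Several complex IV subunits come in tissue forms, and the livers held the general ones. On the standard diet Cox6a1 stood at 362, 363 and 419 CPM, Cox7a2 at 193, 203 and 233 CPM, Cox8a at 282, 276 and 312 CPM and Cox4i1 at 526, 593 and 729 CPM. The heart and muscle forms Cox6a2 and Cox8b had 39 and 23 counts over all 12 libraries, and the lung form Cox4i2 had 41. They did not pass the filter. Cox8c and Cox7b2 had 0 counts in every library, as did a second gene ID annotated as Atp5o. Cox7a1, a heart and muscle form that is also known from brown fat, was low but tested, at 1.74, 1.99 and 2.85 CPM on the standard diet, 3.14, 2.56 and 3.02 on the MASLD diet, 2.696, 6.5 and 3.54 at 0.1x and 1.58, 2.999 and 2.299 at 1x. Its diet value was 0.40 ± 0.32, adjusted p = 0.371 from the deposited counts and 0.79, adjusted p = 0.0436 with the trend removed, the single rise among nuclear members in that fit. Skeletal muscle markers summed to 0.529 to 1.61 CPM in every library. Fat cell markers summed to 0.116 to 0.205 CPM on the standard diet, 18.8 to 54.7 on the MASLD diet, 13.6 to 41.2 at 0.1x and 4.35 to 57.5 at 1x. Of the 5 markers 3 were at 0 in every standard-diet library, 2 in each of the untreated MASLD and 0.1x groups and 4 at 1x. Cidea alone passed the filter, and it rose on the diet (8.03 ± 1.06, adjusted p = 6.79e-05). The sums thus rest mostly on 1 gene, and they cannot tell more fat cells from a rise of Cidea in other cells. The part of fat cells in the value of Cox7a1 was not tested. Ndufa4l2, which hypoxia induces, stood at 1.19, 1.11 and 1.34 CPM on the standard diet and passed in none of the 4 comparisons.

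Genes that build and serve the chain were counted from lists written beside the members. These counts stand against shares of all genes of 13.9% lower and 15.6% higher on the diet, 7.09% and 6.08% at 0.1x, 1.62% and 1.49% at 1x, and 5.86% and 7.13% at 1x against 0.1x. With the trend removed the shares on the diet were 14.2% and 14.9%, and a list count near its share is no result about the list. Of 50 tested assembly factors, 13 fell and 1 rose on the diet (median −0.26), and 9 fell and 1 rose with the trend removed (median −0.08). Surf1, which helps assemble complex IV, fell by 0.66 ± 0.10 (adjusted p = 0.000247; −0.45, adjusted p = 0.000553 with the trend removed), and Cox15, which makes heme a for complex IV, rose (0.44 ± 0.10, adjusted p = 0.00404; 0.23, adjusted p = 0.054). Among the assembly factors 14 of 50 rose and 1 fell at 0.1x, and with the trend removed 0 rose and 1 fell. Cmc1 had the smallest adjusted p of the rises (0.70 ± 0.13, adjusted p = 0.00901), and Taco1, a translational activator of mt-Co1, was the fall (−0.55 ± 0.15, adjusted p = 0.0312; −0.75, adjusted p = 0.0252). Between the doses 11 were lower and 2 higher at 1x, Sco2, a copper chaperone of complex IV, among the lower ones (−1.01 ± 0.16, adjusted p = 0.00417; −0.83, adjusted p = 0.0107 with the trend removed). At 1x against untreated livers 0 of 50 passed, and 2 rose with the trend removed.

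Genes of mitochondrial DNA and RNA were counted against the same shares. Of 18 tested genes of DNA maintenance and transcription 1 fell, Polg2, the accessory subunit of the mitochondrial DNA polymerase (−0.97 ± 0.18, adjusted p = 0.0012; −0.82, adjusted p = 0.00222 with the trend removed). Of 19 genes of mitochondrial RNA processing and stability 3 fell, among them Fastkd5 (−0.82 ± 0.18, adjusted p = 0.00331; −0.82, adjusted p = 0.00287). At 0.1x 4 of 18 and 2 of 19 rose, and 2 and 1 with the trend removed. Those with the smallest adjusted p were Ssbp1, which binds single-stranded mitochondrial DNA, and Slirp, a partner of mitochondrial messages. Ssbp1 had 0.74 ± 0.14, adjusted p = 0.00908, and was not called with the trend removed (0.40, adjusted p = 0.0618). Slirp was called in both fits (0.85 ± 0.15, adjusted p = 0.00856, and 0.79, adjusted p = 0.0184 with the trend removed). Slirp was lower again at 1x than at 0.1x (−0.67 ± 0.15, adjusted p = 0.0144, and −0.63, adjusted p = 0.026 with the trend removed). Fastkd1 was higher there (0.48 ± 0.13, adjusted p = 0.0254, and 0.505, adjusted p = 0.027). Ssbp1 was lower from the deposited counts (−0.54 ± 0.14, adjusted p = 0.0208) but not called with the trend removed (−0.26, adjusted p = 0.187). Slirp was also lower on the diet (−0.62 ± 0.15, adjusted p = 0.00702; −0.66, adjusted p = 0.00315). Tfam, which packs and transcribes mitochondrial DNA, was not called on the diet (−0.07 ± 0.12, adjusted p = 0.714). At 0.1x it was not called from the deposited counts (0.34 ± 0.12, adjusted p = 0.0772) and rose with the trend removed (0.49, adjusted p = 0.0467).

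Of 13 tested regulators of mitochondrial biogenesis, Ppargc1b, a coactivator, fell on the diet (−0.64 ± 0.23, adjusted p = 0.045; −0.75, adjusted p = 0.0141 with the trend removed) and Nrip1, a corepressor, rose (0.42 ± 0.15, adjusted p = 0.0484; 0.23, adjusted p = 0.203). Ppargc1a (−0.23 ± 0.26, adjusted p = 0.546), Nrf1 (−0.28 ± 0.16, adjusted p = 0.187), Gabpa (−0.004 ± 0.10, adjusted p = 0.986) and Esrra (−0.13 ± 0.17, adjusted p = 0.606) were not called. With the trend removed 2 of 13 fell and 0 rose on the diet, beside 14.2% and 14.9% of all genes. The fall besides Ppargc1b was Yy1 (−0.42, adjusted p = 0.00468), not called from the deposited counts (−0.20 ± 0.11, adjusted p = 0.175). At 0.1x 3 of 13 fell, beside 7.09% of all genes, and 0 fell with the trend removed. Nrip1 had the smallest adjusted p of the 3 (−0.66 ± 0.15, adjusted p = 0.0157). Between the doses 3 were higher at 1x, beside 7.13% of all genes. Among them were Nrip1 (0.77 ± 0.15, adjusted p = 0.00893) and Gabpa (0.43 ± 0.10, adjusted p = 0.0202).

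Of 19 genes of electron carriers and coenzyme Q synthesis 4 fell and 1 rose on the diet, and 3 fell and 1 rose with the trend removed, beside 14.2% and 14.9% of all genes. That list took in Cyc1 and Ndufab1, subunit genes that the members' symbols leave out, and neither was called on the diet. Ndufab1 rose at 0.1x (0.44 ± 0.12, adjusted p = 0.0276) but was not called there with the trend removed (0.165, adjusted p = 0.386). Coq8a, a kinase-like protein needed for coenzyme Q, fell (−0.78 ± 0.14, adjusted p = 0.000988; −0.93, adjusted p = 0.000173 with the trend removed), and Etfdh, which feeds electrons from fatty acid oxidation to coenzyme Q, rose (0.45 ± 0.10, adjusted p = 0.00332; 0.44, adjusted p = 0.00131). Etfb, a subunit of the flavoprotein that Etfdh receives electrons from, rose at 0.1x (0.99 ± 0.24, adjusted p = 0.0181; 0.68, adjusted p = 0.0864) and was lower at 1x than at 0.1x (−1.15 ± 0.24, adjusted p = 0.0103; −0.89, adjusted p = 0.0302). In the citric acid cycle outside complex II 3 of 13 rose and 1 fell on the diet, beside 15.6% and 13.9% of all genes. Fh1, the fumarase that acts on the product of complex II, fell (−0.72 ± 0.10, adjusted p = 0.000141; −0.76, adjusted p = 4.46e-05), and Suclg2 of the step before complex II rose (0.42 ± 0.10, adjusted p = 0.0074; 0.30, adjusted p = 0.0386). Of 8 uncoupling proteins and carriers of ATP and phosphate 3 rose and 2 fell, beside the same shares. Ucp2 was up (1.46 ± 0.19, adjusted p = 5.03e-05) and the carrier Slc25a23 was down (−0.56 ± 0.15, adjusted p = 0.0108). None of the last 2 lists' genes passed in the 3 comparisons with Aza-TdC.

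Ribosomal proteins, whose tested cytosolic genes have a median transcript length of 751 bases, were counted beside the members. On the diet 69 of 77 tested cytosolic ribosomal protein genes fell (median −0.60) and 26 of 77 mitochondrial ones (median −0.29), beside 41 of 79 nuclear members. After removal of the trend 41, 18 and 18 fell, with medians of −0.32, −0.12 and −0.15. Over all genes 13.9% fell on the diet from the deposited counts and 14.2% with the trend removed. At 0.1x 45, 29 and 36 rose from the deposited counts, beside 6.08% of all genes. With the trend removed 2, 7 and 2 rose, beside 1.11%. Between the doses 32, 15 and 41 were lower, beside 5.86%, and 3, 3 and 5 with the trend removed, beside 1.93%. No difference between these lists was tested.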

How the data were processed

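Per the labels' protocols, liver RNA went into stranded polyadenylated-RNA libraries read from both ends. Reads were aligned with STAR 2.7.3a to mm10, per the submitters' processing notes. No source here gives the counting tool, its strand setting or its annotation. The authors deposited whole-number counts for 55471 gene IDs in 12 columns (0 columns outside the samples), each tied to its sample by title or library name. The column of 1x library 5 carries its library name, 1xAZA-8, while its title gives the number used here. GENCODE vM21 (GRCm38, the same assembly as mm10) named 55144 IDs and gave types, lengths and GC contents, and 327 were unmatched.

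The members and the lists were chosen with earlier results of these data known. With edgeR 4.0.16 in R 4.3.3, filterByExpr kept 13866 genes out of 22984 with a count, TMM gave scaling factors, and a single quasi-likelihood model held the 12 libraries and a coefficient for each of 4 groups. Contrasts were tested two-sided, and standard errors were |log2 fold change| over the root of F. Calls were at p under 0.05 after Benjamini-Hochberg adjustment over the 13866. CPM were computed here with TMM-scaled library sizes. For the second fit each library's deviation from the mean log2 CPM was modelled by natural splines (3 knots each) of GC content and log2 length over 13763 tested genes outside the members, centred to a mean of 0, and entered as an offset. Since length and group move together in these libraries, that fit can also take up true differences, and the deposited counts can carry the trend.

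Sharing of sequence was the share of a transcript's 100-base windows found in a transcript of another gene. Named members were up to 2 per comparison, direction and class with the smallest adjusted p among those called, and 18 fixed ones (mt-Nd1, mt-Nd6, mt-Cytb, mt-Co1, mt-Atp6, Ndufs1, Ndufa4, Sdhb, Uqcrc1, Cox4i1, Cox4i2, Cox6a1, Cox6a2, Cox7a1, Cox7a2, Cox8a, Cox8b, Atp5b). Of other lists 1 gene per direction was named by the same order, and further ones in a clause were chosen after their values were seen. Both fits were first checked on simulated data. No 2 libraries of a group were alike within counting noise (chi-square over its degrees of freedom at least 16.5). DESeq2 1.42.0, other factors, filters, thresholds, a replicate block and leaving out libraries were alternatives. Removing the trend while leaving out each library was added after the data were seen.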

Additional observations from a re-analysis of the deposited data

Results flagged for a closer look

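The 2 doses of Aza-TdC were compared directly. From the deposited counts 41 of 79 differed between 1x and 0.1x, all lower at 1x. In the fit without the GC and length trend 6 did, 5 lower and 1 higher. The 41 became 19 without 0.1x library 3, 6 without 1x library 2, 13 without 1x library 5, 0 without the 3 libraries of strongest trend and 0 with a replicate block. The numbers of 0.1x library 1 and 1x library 2 occur in no other library, so the block takes up their values. With fewer libraries left to compare, its 0 cannot tell unstable calls from a weaker test. Both doses were compared with the same untreated libraries, and the libraries with the strongest trend were 0.1x library 3 and 1x library 2.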

How the results depend on the processing

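Calls of nuclear members stayed within 1.5 times on the diet (41), at 0.1x (36) and between the doses (41) with DESeq2, RLE or upper-quartile factors, scaling without mitochondrial genes and both other filters, and at 1x every setting gave 0. With the GC and length trend removed they were 19, 2 and 6, and at an adjusted p under 0.01 they were 18, 1 and 7. Without 0.1x library 3, 1x library 2 and MASLD library 5 together, 0.1x gave 11 and the doses 0, and fits of only the groups compared gave 11 between the doses.

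The replicate numbers are shared between groups, but same-numbered libraries did not deviate together (correlations of −0.05, −0.12 and −0.17 between the diets, and from −0.15 to 0.08 elsewhere), and no library on the diet had its best partner under its own number. At 0.1x both shared numbers did, at 0.05 and 0.08, which is under the 0.1 asked for here, so the numbers were not taken to pair the samples. The replicate block left 37 nuclear calls on the diet, 0 at 0.1x and 0 between the doses, and with the trend removed as well 12, 0 and 0. For the mitochondrial genome the block gave 4 calls on the diet, and 0 with the trend removed as well.

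Leaving out 1 library in turn gave 19 to 37 nuclear calls on the diet, 3 to 34 at 0.1x and 6 to 54 between the doses, and 7 to 16 (8 without standard-diet library 5, 9 without MASLD library 3), 0 to 2 and 0 to 10 with the trend removed. Mitochondrial calls ran from 0 to 3 on the diet, 0 to 1 at 0.1x and 0 to 2 between the doses, and were 0 with the trend removed. With all libraries, mitochondrial calls on the diet (3) were 0 with the trend removed, 0 at an adjusted p under 0.01 and 7 without a filter. At 0.1x (0) they were 4 without a filter, 1 in a fit of the 2 groups and 1 without the 3 libraries, and between the doses (0) 5 without a filter and 1 with DESeq2. The causes were not tested.

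With the trend removed, Atp5mpl (−0.004) and Cox6a1 (−0.015) turned at 0.1x, and leaving out 1 library as well gave −0.058, −0.024, −0.012 and −0.001 for Atp5mpl, −0.057, −0.028 and −0.015 for Cox6a1 and −0.027 and −0.017 for Ndufa4. On the diet Cox8a (0.044) and Cox6a1 (0.038) turned without MASLD library 4. None of these was called there. With 3 libraries a group, standard errors of about 0.10 to 0.20 for most nuclear members and 0.22 to 0.26 for the 6 abundant mitochondrial ones set what could be detected.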

Other observations

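The 2 ribosomal RNAs of the mitochondrial genome, which no comparison used, took 0.0967 ± 0.00576% of counts on the standard diet, 0.0775 ± 0.0168% on the MASLD diet, 0.101 ± 0.0110% at 0.1x and 0.0752 ± 0.0296% at 1x (mean ± SD, n = 3), in libraries of polyadenylated RNA. The lowest share, 0.0450%, was in 1x library 2, where the 13 mitochondrial members were lowest too. Counts of mitochondrial transfer RNAs ran from 70 in MASLD library 5 to 176 in 0.1x library 1 per library.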
